A study of Caenorhabditis elegans with 58 samples.

Results

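MicroRNA arms were compared between L4 larvae of Caenorhabditis elegans that carried catalytic mutations in both main miRNA Argonautes and wild-type L4 larvae. The double AEDH larvae (strain MCJ275, with allele cdb153 of alg-1, on chromosome X, and cdb155 of alg-2, on chromosome II) had 3 libraries and wild-type N2 larvae had 3 libraries, out of 58 libraries in the whole series. All 276 arms of the 138 hairpins in the deposited table were considered, as were the star-to-guide ratios of the hairpins. Both groups were whole hermaphrodites, grown for 48 h at 20 °C after hatching, and both came from experiment 1 of the series. In the mutants the first residue of the catalytic tetrad is changed to alanine, in ALG-1 and in ALG-2 alike, in every cell of the animal. The mutant is represented by 1 strain. In bulk RNA of whole animals, fewer cells of a type and less RNA per cell cannot be told apart.

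An Argonaute is loaded with a miRNA duplex and keeps 1 strand, the guide. The other strand, called the star or passenger strand, is normally discarded. Argonautes with an intact tetrad can cut a closely paired RNA strand, a passenger or a target, and most miRNA duplexes of animals hold mismatches that allow the strands to separate without cutting. ALG-1 and ALG-2 bind most C. elegans miRNAs, including let-7 and lin-4, which time larval development. The series asked what the loss of catalysis does to miRNAs and their star strands. Here an arm whose name ends in an asterisk is a star in the annotation, and the star of 6 further hairpins, mir-230_5p among them, was set as the arm of lower abundance.

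The 6 libraries held 7078441 to 10879411 miRNA counts each, and 251 to 260 of the arms had at least 1 count in a given library. Levels are CPM, that is counts relative to the library's miRNA total, further scaled between libraries by TMM, edgeR's trimmed mean method, unless stated otherwise. A count of 3 in a library equals 0.276 to 0.424 CPM before TMM scaling. A total of 223 arms passed the count filter, and the other 53 (44 stars and 9 guides, 8 of them with no count) never exceeded 13 counts in a library. The stage labels matched the marker miRNAs. Before TMM scaling let-7_5p lay between 10559 and 15348 CPM in the 6 L4 libraries, against 45.7 CPM in wild-type embryos of the same experiment. The guides of mir-35 to mir-42, abundant in embryos and germline, summed to 4892 to 7003 CPM in double AEDH and 5731 to 6761 CPM in wild-type L4 larvae, against 504008 CPM in wild-type embryos and 77681 CPM in wild-type young adults. Muscle mir-1_3p lay between 160796 and 187806 CPM, and mir-124_3p of ciliated sensory neurons between 6.07 and 8.78 CPM.

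The libraries were not all alike within a genotype. Before TMM scaling, let-7_3p*, the star of let-7, had 277.9, 320.2 and 29.0 CPM in double AEDH replicates 1, 2 and 3, against 129.8, 99.6 and 36.7 CPM in wild-type replicates 1, 2 and 3. It was lowest in both libraries of number 3, and in wild-type young adults it averaged 6.30 ± 1.29 CPM (SD). mir-85_3p, a guide, had 1133, 1073 and 336.4 CPM in double AEDH and 753.0, 652.2 and 327.8 CPM in wild type, again lowest in both libraries of number 3, against 7091 ± 666 CPM in wild-type young adults. mir-246_3p and mir-1817_5p were likewise lowest there in each genotype. Among arms with a mean of at least 10 CPM in either group, 26 differed at least 4-fold between wild-type young adults and wild-type L4 larvae. Of these, 18 were higher and 8 lower in young adults. They include mir-35_5p* and mir-37_5p*, which did not pass the count filter in L4 larvae. Of the 18, double AEDH lay above wild type in 11, 12 and 5 arms in replicate pairs 1, 2 and 3, and of the 8 in 3, 2 and 4. Most of the 18 were arms of mir-35 to mir-41, which lie together on chromosome II, so they are not separate measures of timing. The same counts were not made over all tested arms. The part of developmental timing in the results below was not tested, so the young adult difference is given beside the called arms that have a large one. The young adults were grown for 44 h at 25 °C, so stage and temperature cannot be told apart in it.

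**Figure D1:**
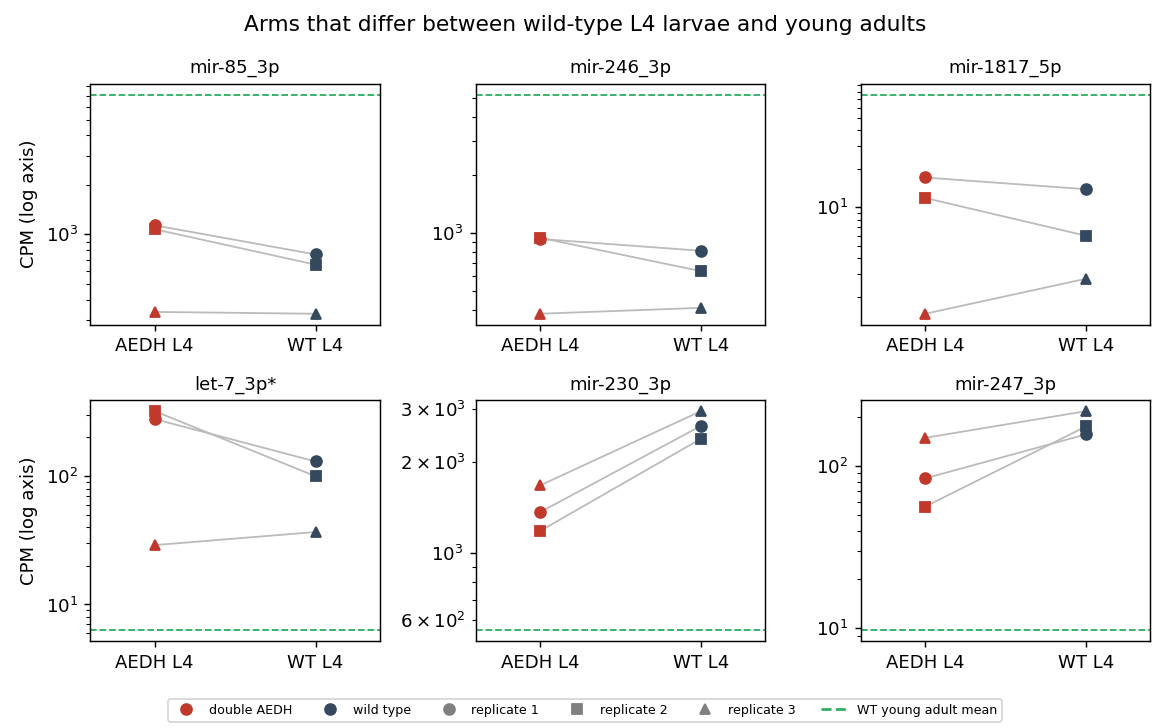
Levels (CPM before TMM scaling, log axis) of 6 arms with at least a 4-fold difference between wild-type young adults and wild-type L4 larvae, for double AEDH (left) and wild-type (right) L4 libraries, with lines joining libraries of the same number and a dashed line at the wild-type young adult mean. mir-85_3p, mir-246_3p, mir-1817_5p and let-7_3p* are lowest in both libraries of number 3, while mir-230_3p and mir-247_3p are lower in double AEDH within each numbered pair.

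In double AEDH L4 larvae 11 of 223 arms (4.93%) passed edgeR's quasi-likelihood test at an adjusted p under 0.05, 4 of them higher (1.79%) and 7 lower (3.14%). The 4 that rose were all star arms. Of the 7 that fell, 6 were guides and 1 was a star. The 3 double AEDH libraries and the 3 wild-type libraries did not overlap for any of the 11. Libraries of the same number deviated together, and with the numbers as blocks 26 arms passed (11.7%), 11 higher (4.93%), all stars, and 15 lower (6.73%), 11 guides and 4 stars. Over all tested arms, 25 lay above wild type without overlap (11.2%), 16 of them stars, and 28 lay below without overlap (12.6%), 21 of them guides. The median log2 fold change was 0.12 over 94 star arms, -0.02 over 129 guide arms and 0.01 over all.

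**Figure D2:**
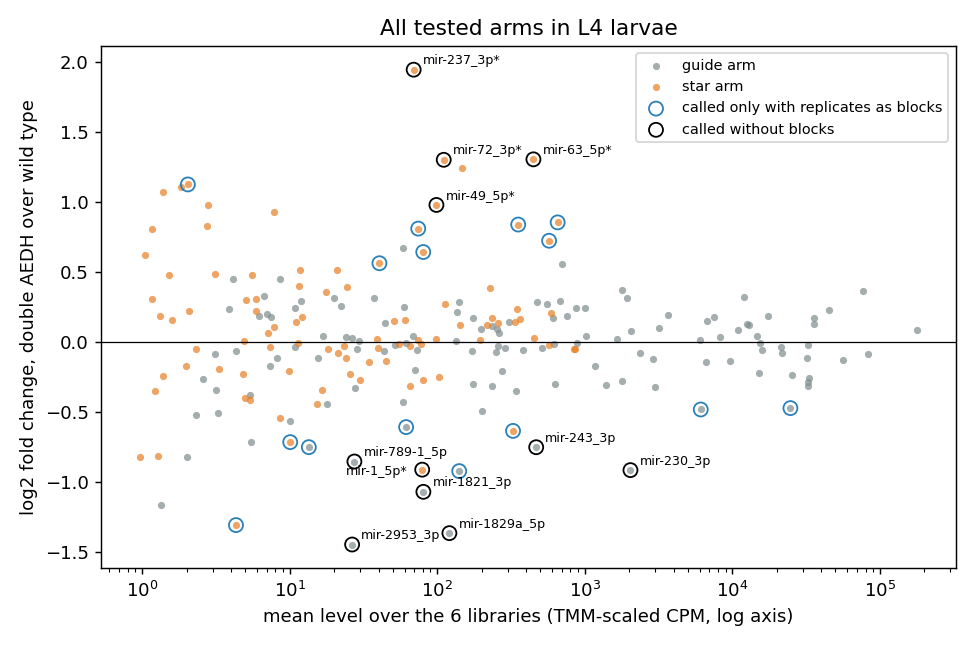
Log2 fold change of double AEDH over wild type for the 223 tested arms against their mean level in the 6 libraries (TMM-scaled CPM, log axis). Orange points are star arms and grey points guide arms, black rings mark the 11 arms called without blocks and blue rings those called only with replicates as blocks. Every ringed arm above 0 is a star arm.

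Among the star arms that rose, mir-63_5p* comes from a hairpin that stands outside protein-coding genes on chromosome X (ce11, X:17598785-17598849, minus strand). It had 566.9, 772.5 and 577.2 CPM in double AEDH replicates 1, 2 and 3, against 267.8, 275.3 and 232.5 CPM in wild-type replicates 1, 2 and 3. The lowest double AEDH library lay more than 2-fold above the highest wild-type library. The log2 fold change was 1.31 ± 0.17 (SE, adjusted p = 0.00593), and 1.08, 1.49 and 1.31 in pairs 1, 2 and 3. Its guide mir-63_3p averaged 2100 ± 312 CPM in double AEDH and 1992 ± 214 CPM in wild type (SD, n = 3 each), and its log2 difference of 0.08 did not pass (adjusted p = 0.881).

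mir-237_3p* is the star of mir-237, a miRNA of the lin-4 family, from X:8154099-8154157 (plus strand), outside protein-coding genes. It had 133.1, 145.0 and 51.6 CPM in double AEDH and 28.4, 32.0 and 25.2 CPM in wild type. All double AEDH libraries were above all wild-type ones, but replicate 3 was well below the other two double AEDH libraries. The log2 fold change was 1.95 ± 0.37 (SE, adjusted p = 0.0175), and 2.23, 2.18 and 1.04 in pairs 1, 2 and 3. Its level in wild-type young adults was lower than in wild-type L4 larvae by a log2 difference of -0.73.

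mir-72_3p* belongs to a hairpin on chromosome II (II:2452854-2452919, plus strand), outside protein-coding genes. It had 167.8, 152.9 and 151.4 CPM in double AEDH, against 84.5, 61.5 and 45.8 CPM in wild type. The double AEDH libraries were close to each other and the wild-type libraries spread more widely, without overlap. The log2 fold change was 1.30 ± 0.22 (SE, adjusted p = 0.0122). mir-49_5p*, from X:9989302-9989363 (plus strand), is the star of a miRNA of the conserved mir-29 family. It had 130.2, 141.0 and 121.9 CPM in double AEDH, against 65.6, 64.7 and 69.0 CPM in wild type, a tight separation with a log2 fold change of 0.98 ± 0.14 (SE, adjusted p = 0.00593). The young adult difference of mir-49_5p* in wild type was -0.73 on the log2 scale.

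Among the guides that fell, mir-1829a_5p lies in an intron of gas-1, which encodes a subunit of mitochondrial complex I, on the same strand (X:15588311-15588370, minus strand). It had 70.9, 75.1 and 56.8 CPM in double AEDH, against 146.9, 172.6 and 203.1 CPM in wild type. All double AEDH libraries were lower than all wild-type ones, and the pair of number 3 was the farthest apart. The log2 fold change was -1.37 ± 0.18 (SE, adjusted p = 0.00593). The opposite arm, mir-1829a_3p*, averaged 73.9 ± 4.34 CPM in double AEDH and 73.2 ± 4.24 CPM in wild type (SD, n = 3 each), which differ by 0.01 on the log2 scale.

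mir-243_3p sits in an intron of R08C7.12 on the same strand (IV:4450798-4450861, plus strand). This miRNA is known to be loaded into the Argonaute RDE-1 and to direct the cutting of a closely paired target. It had 340.2, 341.3 and 365.9 CPM in double AEDH, against 580.0, 563.1 and 620.7 CPM in wild type. All 3 pairs had a similar decrease, and the log2 fold change was -0.75 ± 0.13 (SE, adjusted p = 0.0122). The young adult difference of mir-243_3p in wild type was -0.65 on the log2 scale. The other arm, mir-243_5p, averaged 4.59 ± 1.76 CPM in double AEDH and 6.17 ± 1.199 CPM in wild type and did not pass (adjusted p = 0.562).

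mir-230_3p (X:5803908-5803974, plus strand), the most abundant of the called arms, had 1278, 1220 and 1744 CPM in double AEDH, against 2513, 2400 and 3088 CPM in wild type. Within each genotype the library of number 3 was the highest, and the genotypes did not overlap. The log2 fold change was -0.92 ± 0.18 (SE, adjusted p = 0.0175), and -0.98, -0.98 and -0.82 in pairs 1, 2 and 3. In wild-type young adults this arm was lower than in wild-type L4 larvae by a log2 difference of -2.26. mir-2953_3p, from an intron of F41G3.5 (II:6747182-6747242, plus strand), had 13.2, 10.5 and 18.9 CPM in double AEDH, against 30.3, 36.8 and 49.2 CPM in wild type. Its log2 fold change was -1.45 ± 0.27 (SE, adjusted p = 0.0175), and its young adult difference in wild type was -1.43.

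mir-1821_3p (V:3042552-3042613, minus strand, outside protein-coding genes) had 46.0, 43.0 and 67.0 CPM in double AEDH and 97.1, 106.7 and 123.6 CPM in wild type. Its log2 fold change was -1.07 ± 0.20 (SE, adjusted p = 0.0175), with no overlap. mir-789-1_5p, annotated in an exon of Y51H4A.24 (IV:16740708-16740773, minus strand), had 19.2, 17.1 and 22.3 CPM in double AEDH and 34.97, 34.5 and 36.6 CPM in wild type. Its log2 fold change was -0.85 ± 0.17 (SE, adjusted p = 0.0175), and its young adult difference in wild type was -0.76. The hairpins mir-789-1 and mir-789-2 are close copies, and how the authors' counting divided shared reads between them is unknown here. The same arm of the copy, mir-789-2_5p, had a log2 fold change of -0.20 and did not pass (edgeR adjusted p = 0.817). The only star that fell without blocks was mir-1_5p*, the passenger of the muscle miRNA mir-1 (I:6172677-6172737, minus strand). It had 55.9, 54.3 and 54.3 CPM in double AEDH, against 113.5, 92.7 and 103.6 CPM in wild type, a log2 fold change of -0.91 ± 0.14 (SE, adjusted p = 0.00995). The guide mir-1_3p, the most abundant arm, averaged 183235 ± 12792 CPM in double AEDH and 172322 ± 17654 CPM in wild type (SD, n = 3 each), without a call (adjusted p = 0.781).

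**Figure D3:**
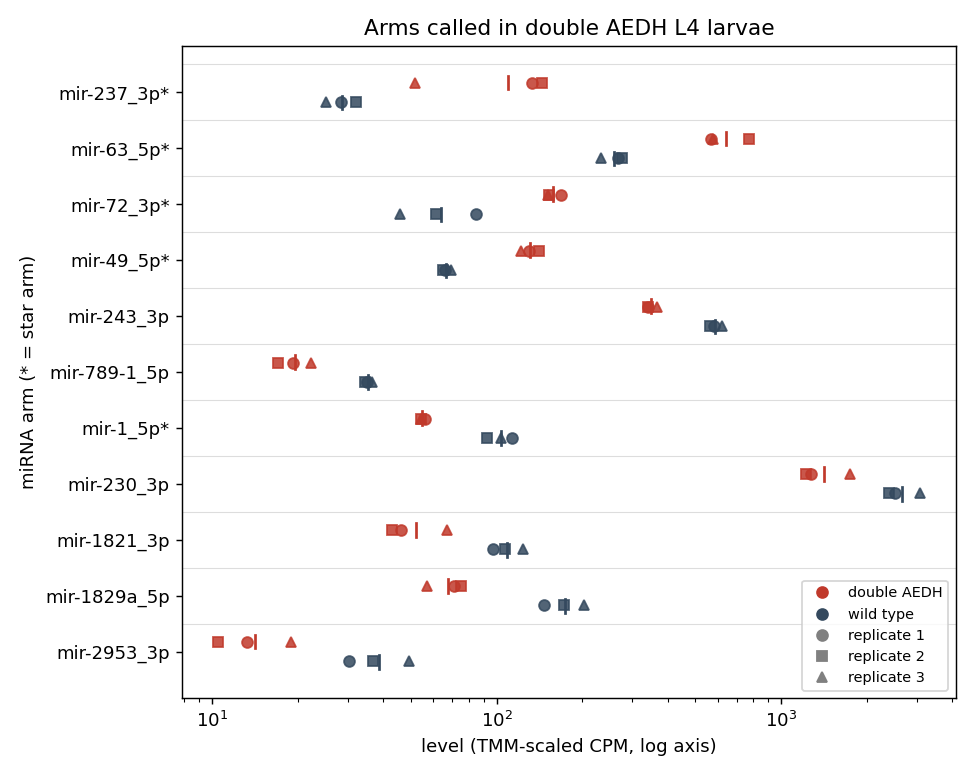
Levels of the 11 called arms in each library (TMM-scaled CPM, log axis), with double AEDH in the upper and wild type in the lower line of each arm. Symbols give the replicate number and short bars the group means. The 4 arms at the top, all stars, lie to the right in double AEDH, and the other 7 lie to the left.

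Calls depended on which libraries entered. Without double AEDH replicate 1, 2 or 3, 2, 6 or 28 arms passed, and without wild-type replicate 1, 2 or 3, 5, 3 or 5 passed. mir-63_5p* and mir-1829a_5p passed in all 6 of these fits. mir-1_5p*, mir-49_5p* and mir-72_3p* passed in 4, and mir-243_3p and mir-2953_3p in 2. The calls of mir-1821_3p, mir-230_3p, mir-237_3p* and mir-789-1_5p were kept in only 1 of the 6. The labels' library numbers place replicate 1 of both genotypes apart from replicates 2 and 3. Among replicates 2 and 3 alone 0 arms passed in edgeR (24 at an unadjusted p under 0.05), and with a term for this split 14 passed. Without the pair of number 3, 31 arms passed.

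The 7 arms that were higher and called only with blocks were all stars, and the 8 that were lower were 5 guides and 3 stars. The star mir-54_5p* had 1123, 736.6 and 670.7 CPM in double AEDH and 593.8, 434.9 and 370.8 CPM in wild type, and it was higher in double AEDH within every pair (adjusted p = 0.0864 without blocks and 8.64e-04 with them). The same applied to mir-80_5p*, with 882.4, 683.0 and 576.4 CPM in double AEDH and 511.8, 403.8 and 381.5 CPM in wild type (adjusted p = 0.0712 without blocks and 0.00255 with them). In both arms the 3 libraries ranked alike in each genotype, with number 1 highest and number 3 lowest.

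mir-230_5p, mir-57_3p*, mir-70_5p* and mir-231_5p* also rose with blocks, by 0.80, 0.83, 0.64 and 0.56 on the log2 scale. Of these, mir-231_5p* is a star by annotation but was the more abundant arm of its hairpin in wild-type L4 larvae. It held 56.2%, 51.5% and 50.5% of the counts of both arms in wild-type replicates 1, 2 and 3. Among guides that fell only with blocks, mir-65_5p had 20357, 19177 and 22741 CPM in double AEDH, against 25801, 25080 and 35511 CPM in wild type (log2 fold change -0.46 with blocks, adjusted p = 0.0305). mir-54_3p, mir-1819_3p, mir-247_3p and mir-800_3p fell by 0.50, 0.61, 1.02 and 0.75 on the log2 scale, and the stars mir-86_3p* and mir-791_5p* by 0.65 and 0.71. Of the block-only arms named so far, those with the largest differences between wild-type young adults and wild-type L4 larvae were all lower in young adults. They were mir-247_3p, mir-1819_3p, mir-230_5p, mir-86_3p* and mir-57_3p*, with log2 differences of -4.17, -2.16, -1.98, -1.62 and -1.40. The others named so far were lower by smaller amounts, except mir-231_5p*, which was higher by 0.14. The star of mir-357, also called only with blocks, had a difference of -1.85.

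The ratio of star to guide within a hairpin does not depend on library scaling, and it was tested in the 91 hairpins whose arms both averaged 10 counts or more. By limma, 10 hairpins passed (11%), 7 with a higher ratio in double AEDH (7.69%) and 3 with a lower one (3.3%). With blocks 17 passed (18.7%), 15 higher (16.5%) and 2 lower (2.2%). The ratio was higher in all 3 pairs for 38 of the 91 hairpins and lower in all 3 pairs for 15, with 0.14 as the median log2 shift of the 91. In 12 of them wild-type L4 larvae held more of the star than of the guide. The count of 10 fell to 1 without double AEDH replicate 2 or without wild-type replicate 2, to 3 without double AEDH replicate 1 and to 5 without wild-type replicate 3. Among replicates 2 and 3 alone it was 0 by limma (20 at an unadjusted p under 0.05).

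mir-230 had the smallest adjusted p (0.00155). Its star share, the star's percent of the counts of both arms, was 23.1%, 23.6% and 25.7% in double AEDH, against 9.02%, 9.52% and 7.76% in wild type. Every double AEDH library was more than 2-fold above every wild-type one. Both arms moved, the guide by -0.92 and the star by 0.84 on the log2 scale, so the log2 ratio shifted by 1.73 (95% interval 1.25 to 2.21). It was the only hairpin that passed in all 6 fits that leave out a library. The ratios of mir-1829a and mir-63 passed in 4 of these fits, and those of mir-236, mir-237 and mir-54 in 2. Those of mir-357, mir-72 and mir-86 passed in 1, and that of mir-1 in 0. In mir-54 (X:13145011-13145076, minus strand, within an intron of F09A5.3 on the opposite strand) both arms also moved in opposite directions, and the star share was 18.5%, 15.3% and 9.65% in double AEDH, against 7.44%, 6.21% and 4.77% in wild type.

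In mir-1829a the guide alone moved. The star share was 49.7%, 49.3% and 58.0% in double AEDH, against 32.4%, 29.1% and 27.8% in wild type, so the arms were about equally abundant in the mutant. The log2 ratio shifted by 1.38 (95% interval 0.83 to 1.92, adjusted p = 0.0104).

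In mir-63, mir-237 and mir-72 the star rose, as given above, while the guides' log2 fold changes ranged from -0.08 for mir-72_5p to 0.15 for the guide of mir-237, without a call. The star share of mir-63 was 22.2%, 24.0% and 23.7% in double AEDH and 13.1%, 12.1% and 9.57% in wild type. That of mir-237 was 2.01%, 1.61% and 0.868% in double AEDH, against 0.472%, 0.427% and 0.436% in wild type. For mir-72 it was 0.811%, 0.642% and 0.770% in double AEDH, against 0.432%, 0.264% and 0.185% in wild type. The scale of these shares thus differed between hairpins, from under 1% in mir-72 to over 20% in mir-63. The star of mir-357 had only 1.52 to 3.48 CPM in double AEDH and 0.960 to 1.61 CPM in wild type, so the groups overlapped, and it passed only with blocks (adjusted p = 0.195 without blocks and 0.0388 with them). In wild-type young adults the star of mir-357 was lower than in wild-type L4 larvae by a log2 difference of -1.85. The star share of mir-357 averaged 6.02 ± 1.69% in double AEDH and 2.81 ± 0.0939% in wild type (SD, n = 3 each).

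The other 3 hairpins moved the other way. The star share of mir-86 (III:11936654-11936719, minus strand, in an intron of Y56A3A.7) was 12.2%, 7.93% and 12.3% in double AEDH, against 19.6%, 16.8% and 20.1% in wild type (adjusted p = 0.0448). That of mir-1 was 0.0331%, 0.0281% and 0.0290% in double AEDH, against 0.0741%, 0.0526% and 0.0551% in wild type (adjusted p = 0.0308). In both the groups were separate. mir-236 (II:7030195-7030259, minus strand) had 1.42%, 1.35% and 1.79% in double AEDH and 3.47%, 3.49% and 2.26% in wild type, with the libraries of number 3 closest to each other, and with blocks its ratio did not pass (adjusted p = 0.0676). The star arm alone, mir-236_5p*, had 2.29, 1.63 and 3.48 CPM in double AEDH, against 7.13, 7.28 and 4.13 CPM in wild type, and passed only with blocks (adjusted p = 0.0739 without blocks and 0.0379 with them).

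**Figure D4:**
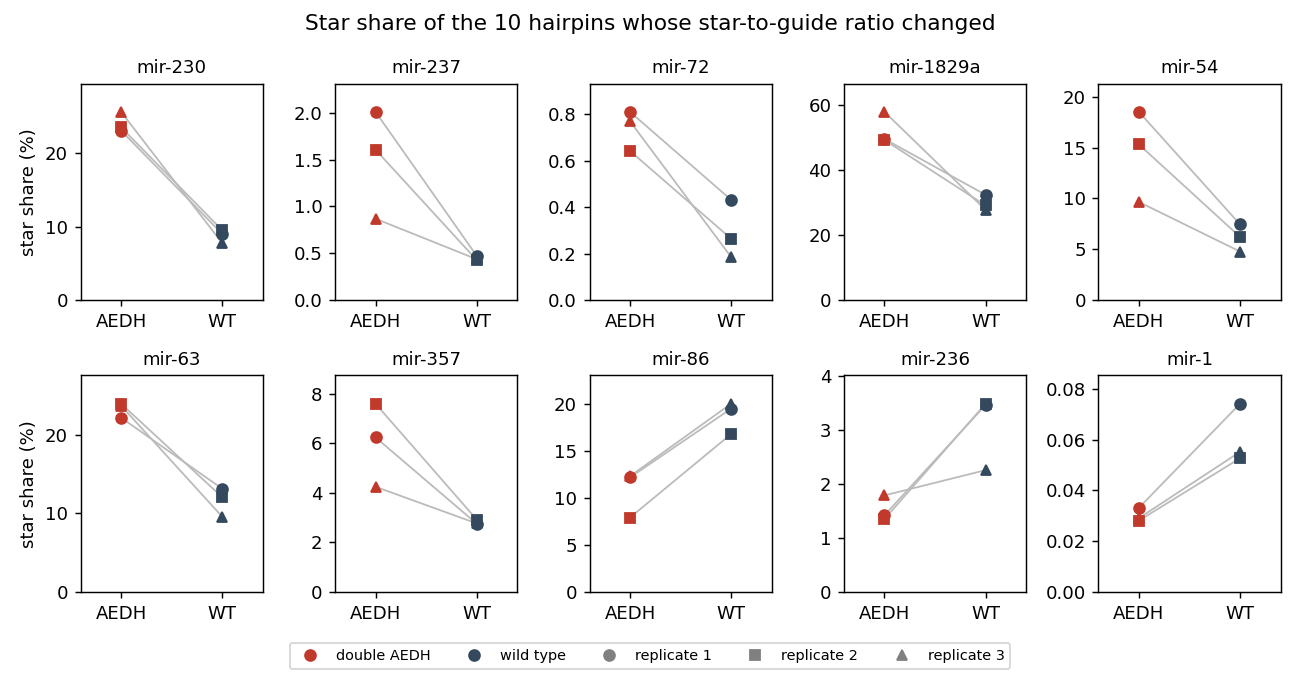
Star share (percent of the counts of both arms) of the 10 hairpins whose star-to-guide ratio passed, in double AEDH (left) and wild-type (right) L4 libraries, each panel with its own axis from 0. Lines join libraries of the same number. The first 7 hairpins have higher and mir-86, mir-236 and mir-1 lower shares in double AEDH in every pair.

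With blocks the ratios of mir-49, mir-70, mir-80, mir-57, mir-43, mir-65, mir-244 and mir-784 passed as well, each higher in double AEDH. The star share of mir-49 was 12.6%, 11.7% and 12.1% in double AEDH, against 8.01%, 7.45% and 7.46% in wild type. In mir-65, mir-244 and mir-784 the groups overlapped although each pair was higher, and their stars lay under 4 CPM in every library.

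The hairpins with a changed ratio were counted by kind of locus. Stars on the 5p side made up 57 of the 91 hairpins, with 4 higher and 2 lower, and stars on the 3p side 34, with 3 higher and 1 lower. Introns held 39, with 3 higher and 1 lower, and 50 lay outside protein-coding genes, with 4 higher and 2 lower. Chromosome X held 27 of the 91 hairpins and 5 of the 7 with a higher ratio, and its median shift was 0.05, against 0.14 over all 91. The 40 hairpins within 10 kb of another hairpin gave 3 higher, and the 51 alone gave 4 higher and 3 lower. Grouped by the star share in wild-type young adults, which are other libraries, the median shift was 0.28 in 31 hairpins with a share of up to 1%, 0.25 in 26 hairpins with 1 to 10%, and -0.04 in 34 hairpins with more than 10%. These are descriptions without a test of the differences.

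For the whole miRNA pool the differences were small. Stars made up 1.29%, 1.04% and 0.998% of miRNA counts in double AEDH, against 1.09%, 0.891% and 0.818% in wild type. Each pair was higher in double AEDH, but the groups overlapped, with 1.11 ± 0.161% in double AEDH and 0.932 ± 0.140% in wild type (SD, n = 3 each; exact two-sided permutation p = 0.3, where 3 against 3 cannot go below 0.1). The median star-to-guide log2 ratio of a library, centred per hairpin, was higher in double AEDH by 0.22 (exact permutation p = 0.2), and by 0.22, 0.22 and 0.20 in pairs 1, 2 and 3. miRNA counts per spike-in count were 5.49 ± 0.686 in double AEDH and 5.45 ± 0.538 in wild type (SD, n = 3 each; exact permutation p = 1), and 1 of 3 pairs was higher. Spike-in counts ranged from 1167570 to 2155991 per library.

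Among families, no guide of the let-7 family passed in either direction. let-7_5p, mir-48_5p, mir-84_5p and mir-241_5p summed to 69599 to 90991 CPM in double AEDH, against 60336 to 71567 CPM in wild type. Their median log2 fold change was 0.17, against -0.02 over all guides, and the sums overlapped between the groups. let-7_3p* had the largest fitted change of a let-7 family star (1.25) but did not pass (adjusted p = 0.540), with the library of number 3 low in each genotype as described above. Of the 6 heterochronic stars, those of the let-7 family, lin-4 and mir-237, only mir-237_3p* rose. Over all tested stars, 4 of 94 rose.

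None of the 8 guides of the mir-35 family, which is needed in embryos, passed, and their median log2 fold change was -0.02. In the mir-51 family 0 of 6 guides passed without blocks, with a median of 0.15, and the 5 tested stars had a median of 0.36. The medians over all tested guides and stars were -0.02 and 0.12. The 4 guides of the mir-58 family analysed here, which include the abundant mir-58a_3p, had a median of -0.06, and none passed. mir-58a_3p had 80022, 108846 and 72663 CPM in double AEDH, against 61219, 72656 and 69587 CPM in wild type, so all double AEDH libraries were above all wild-type ones, replicate 3 only narrowly, but the difference did not pass (adjusted p = 0.334).

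In the group made up of mir-229 and mir-63, mir-64, mir-65 and mir-66, 1 of 5 stars rose (mir-63_5p*). The median was 0.83 over these stars and 0.08 over the guides, against 0.12 over all tested stars. The value of 0.83 is that of mir-65_3p*, a star of low level that did not pass (edgeR adjusted p = 0.470). The guides of this group summed to 58452 to 61482 CPM in double AEDH, against 62182 to 85527 CPM in wild type, without overlap. mir-65_5p is the arm of this group that fell with blocks. In the mir-44 family no guide passed without blocks, with a median of -0.30 and mir-247_3p lowest at -0.92 (adjusted p = 0.245). mir-44_3p and mir-45_3p share their sequence in large part, so their separate counts are uncertain. In the mir-72 family 1 of 3 stars rose (mir-72_3p*), in the mir-29 family 1 of 2 (mir-49_5p*), and in the mir-1829 family 1 of 3 guides fell (mir-1829a_5p). Over all tested arms, 4 of 94 stars rose and 6 of 129 guides fell. Each of these families is small and holds a single called arm, so the counts do not describe the family. The 3 guides of the mir-2 family did not pass, and their median was 0.29.

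None of the other guides most abundant in wild-type L4 larvae passed. mir-71_5p averaged 80440 ± 11054 CPM in double AEDH and 85508 ± 5852 CPM in wild type, mir-70_3p 54122 ± 10809 and 59292 ± 1856 CPM, mir-48_5p 48425 ± 6588 and 41370 ± 3024 CPM, and mir-45_3p 29043 ± 7221 and 36149 ± 2454 CPM, in the same order of genotypes (SD, n = 3 each). mir-48_5p was higher in double AEDH in all 3 pairs and without overlap, and mir-45_3p was lower in all 3 pairs. The count of mir-45_3p apart from mir-44_3p is uncertain, as stated above. The adjusted p was 0.491 for mir-48_5p and 0.470 for mir-45_3p, and higher for mir-71_5p and mir-70_3p.

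The double AEDH effect in L4 larvae was set against that in young adults and in embryos of the same experiment, which share no library with it. In a joint fit of 22 libraries, 0 of 238 arms (0%) had a different effect in L4 larvae than in young adults by edgeR's interaction test (3 at an unadjusted p under 0.05, and 0 in DESeq2). With blocks within each stage there were 2, mir-788_3p with a higher effect in L4 larvae (by 0.96) and mir-86_3p* with a lower one (by -0.89). For mir-63_5p* the log2 effect was 1.29 in embryos, 1.33 in L4 larvae and 1.00 in young adults, and its L4 effect minus its young adult effect was 0.32 (95% interval -0.12 to 0.77). mir-1829a_5p had effects of -1.50 in embryos, -1.34 in L4 larvae and -1.15 in young adults, so the direction was the same at each stage. For mir-237_3p* the effect was 0.62 in embryos, 1.97 in L4 larvae and 0.79 in young adults, and the difference of L4 larvae from young adults had a wide interval (1.18, -0.22 to 2.58).

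Against embryos, 1 of 238 arms (0.42%) had a different effect in L4 larvae. mir-795_3p* averaged 39.2 ± 7.57 CPM in double AEDH and 38.6 ± 2.60 CPM in wild-type L4 larvae (SD, n = 3 each, before TMM scaling), and 4.22 ± 1.33 CPM in double AEDH and 1.34 ± 0.592 CPM in wild-type embryos (SD, n = 4 each). Its effect was thus 0.05 in L4 larvae and 1.69 in embryos, a difference of -1.64 (95% interval -2.40 to -0.89, edgeR interaction adjusted p = 0.0469). This call was lost with spike-in totals, with DESeq2's size factors in edgeR, without the count filter, and without any 1 of the L4 libraries other than double AEDH replicate 3. With blocks within each stage 18 arms passed, all with a lower effect in L4 larvae, among them mir-72_3p* (-1.06), mir-54_5p* (-1.16), mir-70_5p* (-1.18) and mir-80_5p* (-0.97). The median difference over all arms was -0.08, or 0.20 with spike-in totals.

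**Figure D5:**
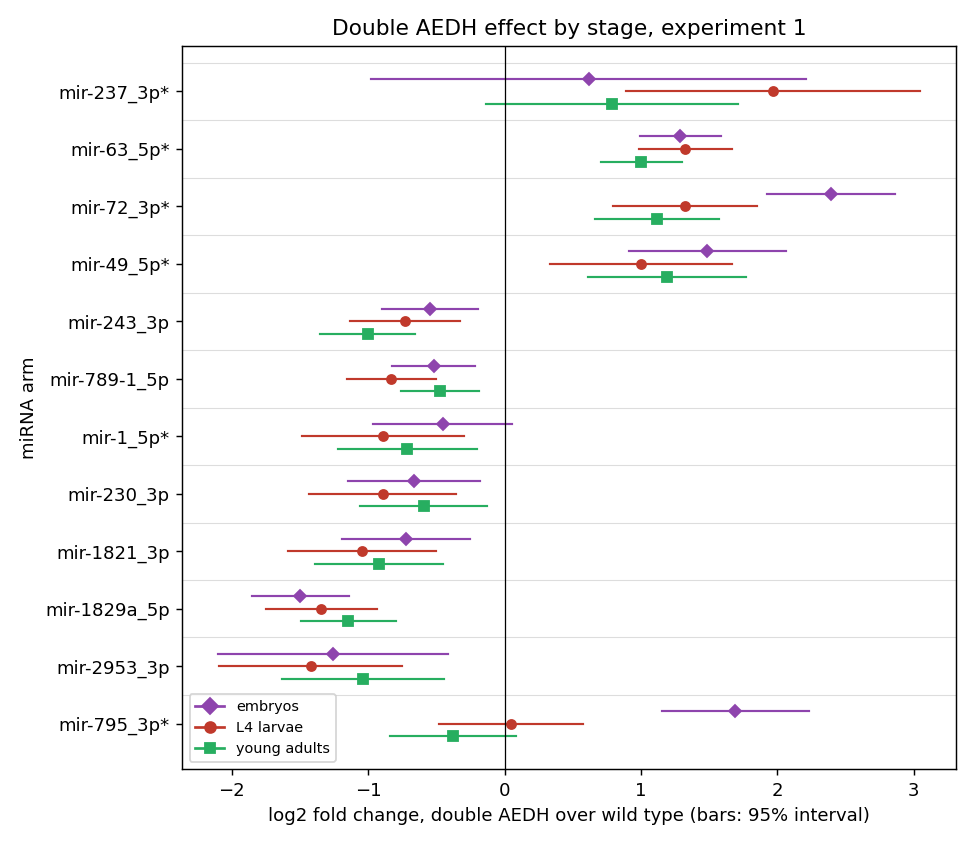
Log2 fold change of double AEDH over wild type in embryos, L4 larvae and young adults of experiment 1, from the joint fit, for the 11 arms called in L4 larvae and mir-795_3p*. Points are estimates and bars 95% intervals. The 11 arms have the same direction at the 3 stages, while mir-795_3p* is above 0 in embryos and near 0 in L4 larvae. In the joint fit mir-1_5p*, mir-230_3p and mir-49_5p* did not pass in L4 larvae.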

How the data were processed

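Small RNA from whole animals was sequenced, and the authors deposited 1 table of estimated counts per miRNA arm, spike-in and summary category for the whole series. The annotation is MirGeneDB v2.0 on ce11, per the file headers, and its positions were used as the deposited file gives them. Gene context came from the WBcel235 annotation, the same assembly. Per the submitters' processing notes, the tools included HTSeq 0.13.5, SAMtools 1.13, Bowtie2 2.4.4, cutadapt 3.4 and DESeq2. How shared reads were counted is not stated in those notes. In the L4 libraries 102 values (5.94%) ended in 0.5, in 30 hairpins, and were rounded up. The 5 summary categories and 10 spike-in RNAs stayed out of library sizes and tests, and 28.1 to 37.5% of counts lay outside annotated features.

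The 6 L4 libraries were fitted with edgeR 4.0.16 (quasi-likelihood, TMM, filterByExpr with a minimum count of 10, robust) in R 4.3.3, and star-to-guide ratios with limma 3.58.1 (trend, robust) on log2 values with a pseudocount of 0.5. Adjusted p is Benjamini-Hochberg over all arms or hairpins tested, with a threshold of 0.05. Single values per library were compared with exact two-sided permutation tests. DESeq2 1.42.0, other scalings and filters, blocks and left-out libraries were alternatives.

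The labels give both genotypes replicate numbers. Deviations from the group mean correlated between same-numbered libraries at 0.64, 0.24 and 0.59 (across arms), only weakly for number 2. The numbers were taken as pairs for the values per pair and the fits with blocks. The main fits did not use them. No 2 replicates agreed within sampling noise (lowest chi-square over its degrees of freedom 190.2). The labels do not say that replicates were separate cultures, and the spread that the p-values measure may be technical. Detection floors cover counting error only.

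Members, lists and tests were chosen with earlier results of these data known. Named are mir-243 arms, called arms and hairpins, up to 8 per direction called only with blocks (mean of at least 10 CPM), the 6 highest wild-type guides, the extremes of each family list and called interactions. Of list extremes, those under 0.3 (log2) were left unnamed, a limit added after values were seen. mir-58b was not analysed here, so that list has 4 hairpins.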

Additional observations from a re-analysis of the deposited data

Results flagged for a closer look

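The double AEDH effect on mir-795_3p* differed between stages by a test of the difference itself. The effect in L4 larvae minus that in embryos was -1.64 on the log2 scale (95% interval -2.40 to -0.89, edgeR interaction adjusted p = 0.0469). In L4 larvae its mean was 39.2 CPM in double AEDH and 38.6 CPM in wild type, and in embryos 4.22 CPM in double AEDH and 1.34 CPM in wild type. Its embryo levels were thus lower than its L4 levels in both genotypes. With 5 of the 6 L4 libraries left out singly the call was lost.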

How the results depend on the processing

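The count of 11 called arms became 2 with spike-in totals (1 higher, 1 lower), 21 with DESeq2, 26 with replicates as blocks, 0 without the pair of number 1 (24 at an unadjusted p under 0.05), 0 without the pair of number 2 (25 at an unadjusted p under 0.05) and 31 without the pair of number 3; leaving out single libraries gave 2 to 28. Leaving out the pair of number 2 or 3 was chosen after seeing the data. In the joint fit of experiment 1 the L4 calls of mir-1_5p*, mir-230_3p and mir-49_5p* were lost, and that of mir-791_5p* was gained. The 10 hairpins became 4 without a count filter, 17 with blocks, 0 without the pair of number 1 (20 at an unadjusted p under 0.05 in limma) and 0 without the pair of number 2 (13), and 1 to 12 without single libraries. The fits without a pair have 2 libraries per genotype. The arm that differed between L4 larvae and embryos became 0 in edgeR with DESeq2's size factors, spike-in totals or no filter (13, 7 and 16 arms at an unadjusted p under 0.05), 18 with blocks and 0 to 1 without single libraries. Between L4 larvae and young adults 0 became 2 with blocks. The difference in miRNA counts per spike-in count was 0.0333 and ran from -0.194 to 0.428 without single libraries. The fold change of mir-2_5p* (0.31) became -0.0787 without the pair of number 3, and that of mir-40_5p* (-0.34) ran from -0.763 to 0.0841 without single libraries (0.0841 without wild-type replicate 1), neither called. The cause of these changes was not tested. Over 59 named arms and hairpins, 951 alternatives left direction and call as they were in 731, lost the call in 149, gained it in 69 and turned the sign in 2. Only arms and hairpins called in the main fit could lose a call, and most of the 59 were not called there. The 731 thus include many alternatives in which an uncalled arm or hairpin stayed uncalled. Within L4 larvae, blocks changed no call of an arm or hairpin other than those named above.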
